A study of Mus musculus with 16 samples.

Results

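This report sets 2 libraries of day 0 knock-in cells against 2 libraries of the wild-type control, 4 of the 16 libraries in the series, chosen by their sample titles. Both groups are E14TG2a, a male mouse embryonic stem cell line. The day 0 cells carry a heterozygous Dnmt1 N1580A knock-in and were taken in the naive state, grown with leukaemia inhibitory factor and the inhibitors CHIR99021 and PD0325901 (2i medium), before any withdrawal of the inhibitors. The control cells are labelled wild type at Dnmt1. Their labels give no day or culture state, although the names of their deposited tables mark them as 2i. Whether a line is 1 clone is not stated. The protocol describes, for both genotypes, electroporation with 1 mM Ado-6-azide, DNA isolation 3 h later and 900 ng of DNA. The table names mention azide for day 0 and not for the control, and no label says whether the control libraries received it. Genotype, azide exposure and handling therefore cannot be told apart in this comparison. Another 3 libraries, labelled wild type without the word control, serve below as a further view of wild-type cells.

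DNMT1 is the maintenance DNA methyltransferase, which copies methylation of CpG dinucleotides to the new strand after replication. The N1580A change is meant to let the enzyme take an azide-bearing analog of its methyl donor, S-adenosylmethionine, so that an azide rather than a methyl group is left on the CpG. The azide is joined to a biotinylated oligonucleotide, bound fragments are enriched and a polymerase starts copying from the oligonucleotide, so a read begins at or beside the marked CpG. Wild-type cells, whose enzyme is not adapted to the analog, show what the enrichment and priming steps give without that adaptation. In mammalian genomes most CpGs are methylated, and CpG-dense stretches at gene promoters are the main exception. The deposited tables list each CpG position with at least 1 read and its number of reads. A listed position is used here as the unit of label, because reads carry no molecular identifiers and several reads at a position can be copies of the same fragment.

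Autosomal depth differed widely, with 4134592 and 4796615 reads on day 0 and 22608 and 8059 in the control. The geometric means differed 330-fold. Day 0 listed 383292 and 399896 positions, against 9027 and 3436 in the control, a 70.3-fold difference. The groups do not overlap in either measure, but with 2 libraries against 2 the smallest two-sided exact permutation p is 0.3333, which is also the p of every difference in shares below whose groups do not overlap. The labels do not say whether replicates came from separate cultures, so these permutation p-values measure only the spread between these libraries. That spread may be technical, and no p-value below measures more than it. With the 3 other wild-type libraries added to the control, the smallest p is 0.0952. Control replicate 1 stands apart in its reads: 10 positions, of 9027, hold 10.9% of them, against 1.43% in replicate 2. The intervals quoted cover counting error only.

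The main contrast lay at gene starts. Of the listed positions, 2.39% and 2.13% on day 0 fell within 1 kb of a gene start, against 9.39% and 7.39% in the control, so the control share was 3.71-fold higher. The share within 1 kb of the other end of a gene was 2.77% and 2.72% on day 0 and 3.52% and 3.08% in the control, 1.203-fold higher in the control. In promoter windows, which run from 250 bases before to 50 bases after each start in the RefSeq table, the share averaged 0.362% ± 0.0571 on day 0 and 2.09% ± 0.364 in the control (SD, n = 2 each). The ratio was larger the closer the window lay to the start, and the groups did not overlap. The 3 other wild-type libraries gave 6.24%, 7.41% and 6.79% within 1 kb of a gene start, between the day 0 values and the higher control value, and the exact p with them in the control group was 0.0952 for the share within 1 kb of either gene end.

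Away from genes the order turned round. Positions outside protein-coding and lncRNA genes made up 42.1% ± 0.0365 on day 0 and 38.2% ± 1.49 in the control (SD, n = 2 each). Within that, positions over 100 kb from any gene were 6.66% and 6.70% on day 0 and 4.69% and 5.36% in the control, and positions 10 to 100 kb away were 21.7% and 22.0% on day 0 and 15.9% and 18.0% in the control. Protein-coding gene bodies held 50.4% ± 0.0268 of day 0 positions and 54.7% ± 1.36 of control positions. The parts of lncRNA gene bodies outside protein-coding gene bodies held 7.53% ± 0.00972 on day 0 and 7.16% ± 0.130 in the control (SD, n = 2 each). This was the smallest relative difference of the classes, and the groups overlapped once the other wild-type libraries were added (exact p = 0.667). The day 0 replicates were closer to each other than the control replicates in each of these classes.

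**Figure D1:**
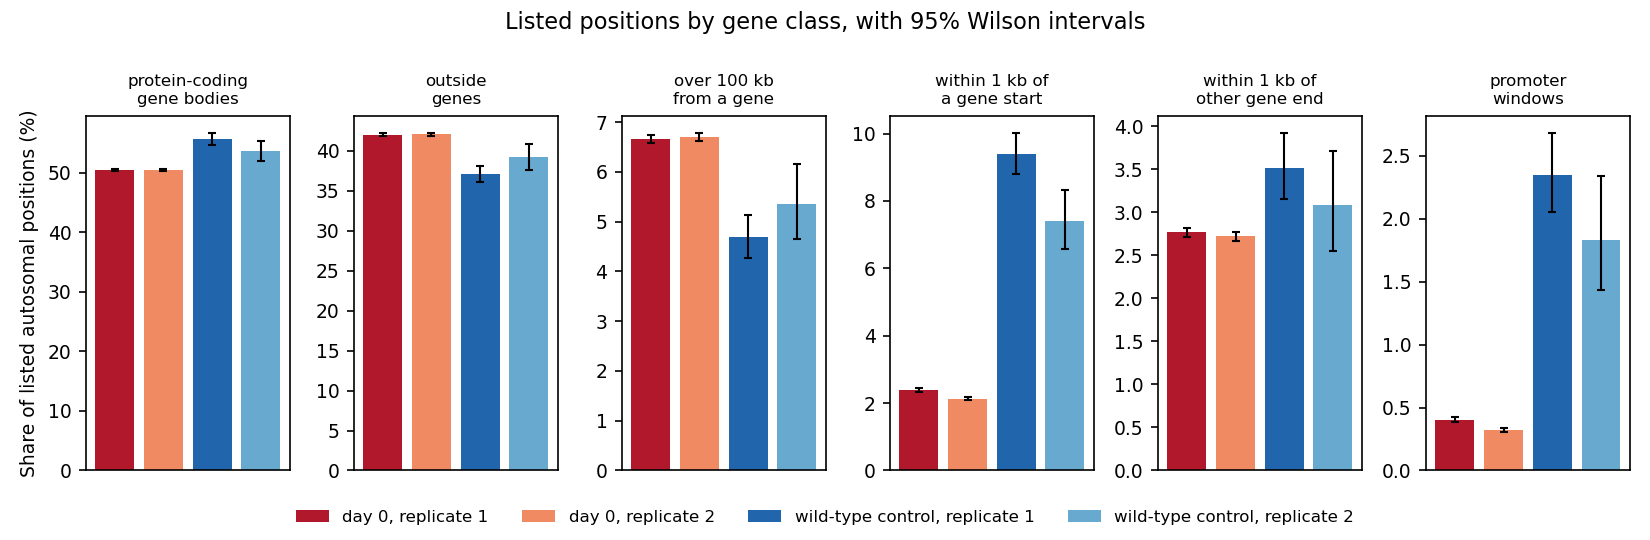
Share of listed autosomal positions (%, each panel with its own axis from 0) in 6 gene classes, by library, day 0 left of control, with 95% Wilson intervals. The control bars are higher within 1 kb of a gene start (9.39% and 7.39%, against 2.39% and 2.13% on day 0) and lower over 100 kb from a gene.

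Splitting promoter windows by their number of CpGs separated the groups further. This split was made after the data were seen. The rate used is listed positions per 10000 CpGs present in the windows, per 100000 positions listed in the library, so neither CpG number nor depth enters it. At promoters of 3 to 5 CpGs the rate was 51.0 and 46.9 on day 0 and 53.0 and 75.9 in the control. At 6 to 10 CpGs it was 36.2 and 33.0 on day 0, against 66.7 and 61.4 in the control. At 11 to 15 CpGs it was 13.7 and 11 on day 0, against 77.2 and 126 in the control. At 21 to 30 CpGs it was 4.03 and 1.57 on day 0, against 98.5 and 61.7 in the control, a 28.6-fold difference of the means. At 31 or more CpGs day 0 had 2.06 and 0.816, against 34.2 and 25 in the control. The day 0 rate therefore fell with each step in CpG number above 5 CpGs in both replicates, while both control libraries remained at 25 or more from 3 CpGs up. At promoters of 1 to 2 CpGs the control rests on 1 and 2 positions, and the groups overlapped.

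**Figure D2:**
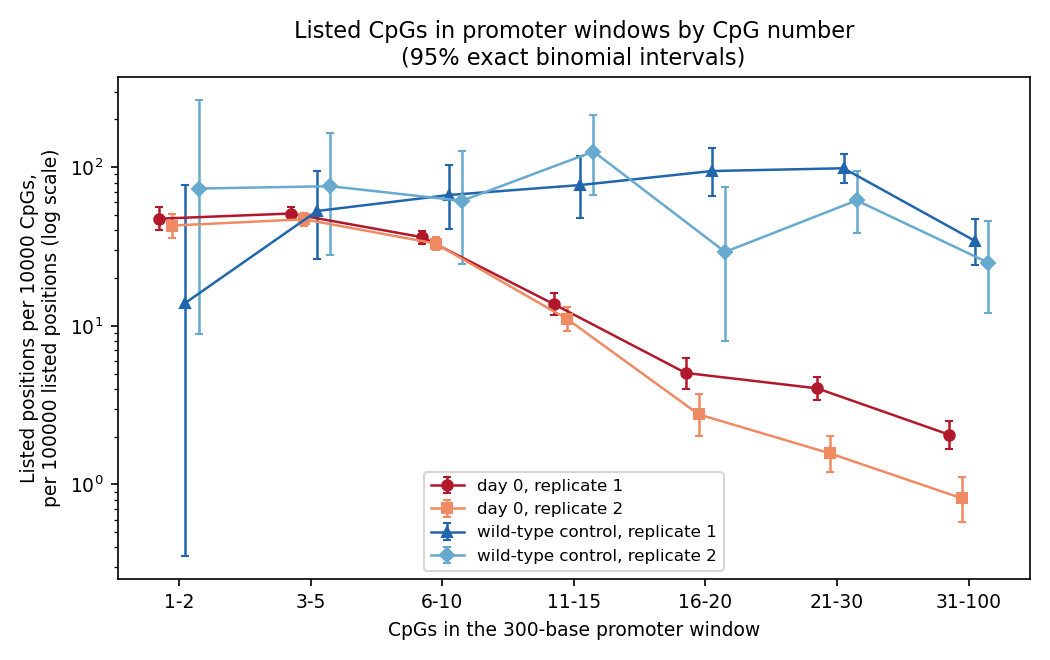
Listed positions per 10000 CpGs and per 100000 listed positions (log axis) against the number of CpGs in the 300-base promoter window, by library, with 95% exact binomial intervals. The day 0 libraries fall from 51.0 and 46.9 at 3 to 5 CpGs to 2.06 and 0.816 at 31 or more, while the control libraries stay between 25 and 126 over the same classes.

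Promoters of over 15 CpGs hold 73.0% of the CpGs in these windows. They took 21% (322 of 1534) and 11.2% (144 of 1283) of the promoter positions on day 0, against 74.9% (158 of 211) and 55.6% (35 of 63) in the control. The Wilson 95% intervals ran from 19 to 23.1% and from 9.61 to 13.1% on day 0, and from 68.6 to 80.3% and from 43.3 to 67.2% in the control. In the other wild-type libraries the share was 65.5%, 40.0% and 63.5%, of 55, 20 and 96 positions. In plain numbers, day 0 listed 322 and 144 CpGs at these promoters from 383292 and 399896 positions in all, and the control listed 158 and 35 from 9027 and 3436. Within the day 0 pair, replicate 1 had more such positions than replicate 2, and they carried fewer reads: at 16 to 20 CpGs the mean was 3.74 reads in replicate 1 and 9.27 in replicate 2, against 10.4 and 12.2 at promoters of 3 to 5 CpGs. Counting only positions of at least 2 reads, the mean share was 11.1% on day 0 and 67.1% in the control.

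The profile around the start shows the same contrast over a wider range. In the 1 kb centred on 10516 starts with over 15 promoter CpGs, the density of positions was 0.577 and 0.288 times that of the flanks on day 0, and 5.51 and 5.71 times in the control. So the day 0 libraries have a dip around the start, where the control has a peak. The flanks are the outermost 1 kb on each side of the profile. At 20849 starts with 15 or fewer CpGs the same ratio was 1.13 and 1.01 on day 0 and 1.83 and 2.15 in the control, a smaller rise in the control and no dip on day 0. These densities are per base and not scaled by CpG number. Per CpG in the promoter windows, the control rate showed no steady rise. It was 53.0 and 75.9 at 3 to 5 CpGs, 94.6 and 29.2 at 16 to 20, 98.5 and 61.7 at 21 to 30 and 34.2 and 25 at 31 or more. Of the 10516 dense windows, 433 held a day 0 position in either replicate and 210 a control position. Of these, 12 held one in both groups, and 12 were listed in both day 0 replicates.

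**Figure D3:**
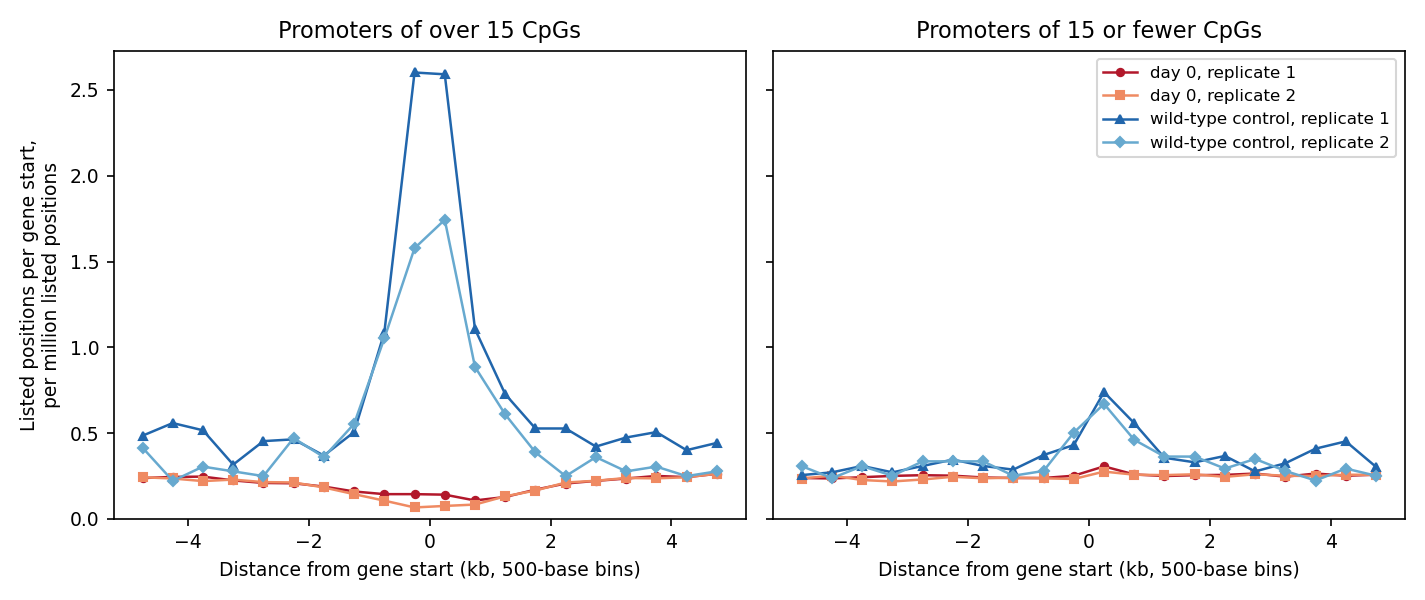
Listed positions per gene start, scaled to equal numbers of listed positions per library (linear axis), in 500-base bins from 5 kb before to 5 kb after the start, for promoters of over 15 CpGs (left) and of 15 or fewer (right), by library. At the dense promoters the day 0 lines dip around the start, and the control lines peak. Over the central 1 kb the day 0 density is 0.577 and 0.288 times the flanks, and the control density 5.51 and 5.71 times. The lowest bin of day 0 replicate 1 begins 500 bases after the start. The profile is not scaled by CpG number.

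The following promoter windows show what lies behind these counts. They are from RefSeq on GRCm38.p6, read 5′ to 3′ along the gene, with the listed CpGs in capitals. The first 2 are windows where the control listed 2 CpGs and day 0 listed none. Pcna, which encodes the sliding clamp of DNA replication, has its window at chr2:132253131-132253430 on the minus strand, with 26 CpGs, of which replicate 2 of the control listed 2. Chmp2a, a subunit of the membrane-cutting complex ESCRT-III, has its window at chr7:13034728-13035027 on the minus strand, with 17 CpGs, of which each control replicate listed 1.
Pcna: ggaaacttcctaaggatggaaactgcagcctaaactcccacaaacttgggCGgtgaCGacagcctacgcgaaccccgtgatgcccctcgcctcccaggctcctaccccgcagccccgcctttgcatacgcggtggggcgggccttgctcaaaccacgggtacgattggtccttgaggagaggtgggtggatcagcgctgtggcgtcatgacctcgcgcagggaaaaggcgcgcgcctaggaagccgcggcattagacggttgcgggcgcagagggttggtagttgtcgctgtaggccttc
Chmp2a: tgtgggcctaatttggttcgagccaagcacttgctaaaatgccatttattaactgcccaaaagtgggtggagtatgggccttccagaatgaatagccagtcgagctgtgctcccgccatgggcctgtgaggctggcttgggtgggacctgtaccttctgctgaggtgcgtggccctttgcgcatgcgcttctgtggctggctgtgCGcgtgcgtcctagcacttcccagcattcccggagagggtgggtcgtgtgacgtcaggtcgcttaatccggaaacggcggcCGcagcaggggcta
The next 2 are CpG-dense windows that both day 0 replicates listed and the control did not. Others of this kind were those of Tmem267 (4 and 3 CpGs), 3110070M22Rik (5 and 2) and Gm32263 (1 and 2). Mfap2, Lsm10, Smyd4, Josd1, Gm24463 and the vomeronasal receptor gene Vmn2r29 had 1 and 1 each. The windows of Tmem267 and 3110070M22Rik overlap on opposite strands of chromosome 13 and share listed CpGs. They are therefore not separate loci, although each counts among the dense windows listed in both day 0 replicates. The 2 shown are not taken to stand for a class of genes. Hormad1 encodes a protein of the meiotic chromosome axis and is on the list of germline genes with methylated promoters. Its window, chr3:95559429-95559728 on the plus strand, has 24 CpGs, of which each day 0 replicate listed 1. Thegl, a gene named for its likeness to a spermatid protein, has its window at chr5:77015773-77016072 on the plus strand, with 27 CpGs, of which day 0 listed 1 and 3.
Hormad1: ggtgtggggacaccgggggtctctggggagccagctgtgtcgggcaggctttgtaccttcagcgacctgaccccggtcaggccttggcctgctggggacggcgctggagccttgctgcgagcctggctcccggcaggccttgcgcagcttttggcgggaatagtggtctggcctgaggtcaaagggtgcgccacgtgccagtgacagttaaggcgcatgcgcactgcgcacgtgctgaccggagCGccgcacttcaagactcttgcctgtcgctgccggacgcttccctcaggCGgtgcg
Thegl: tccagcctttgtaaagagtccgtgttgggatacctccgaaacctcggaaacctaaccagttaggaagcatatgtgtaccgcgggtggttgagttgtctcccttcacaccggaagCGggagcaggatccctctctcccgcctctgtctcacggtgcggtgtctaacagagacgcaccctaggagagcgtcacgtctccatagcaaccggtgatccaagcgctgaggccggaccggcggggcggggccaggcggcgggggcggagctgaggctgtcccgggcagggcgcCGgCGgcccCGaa
The last is a CpG-poor window with more than 1 listed CpG in both day 0 replicates. Dgkh, diacylglycerol kinase eta, has its window at chr14:78644402-78644701 on the minus strand, with 5 CpGs, of which day 0 listed 2 and 2 and the control none.
Dgkh: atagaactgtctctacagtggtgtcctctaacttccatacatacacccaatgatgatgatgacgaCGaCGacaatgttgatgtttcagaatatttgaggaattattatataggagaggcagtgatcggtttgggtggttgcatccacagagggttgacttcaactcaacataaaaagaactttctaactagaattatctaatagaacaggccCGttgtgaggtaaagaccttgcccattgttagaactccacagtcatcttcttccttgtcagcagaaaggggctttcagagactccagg
All listed positions that could be read in these windows, 1534 and 1283 on day 0 and 211 and 63 in the control, were at the C of a CpG on the reference plus strand. The windows above were picked after their counts were seen, as examples.

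Among the gene groups, the ribosomal protein genes differed most in share. The 79 cytosolic ribosomal protein genes, which are short and start in CpG-dense promoters, had 26 and 15 positions in their bodies or within 1 kb on day 0, against 11 and 2 in the control. As a share of all positions the control was 17.1-fold higher, and 11.1-fold without control replicate 1. The 39 Hox genes, which pattern the body axis, had 51 and 28 positions on day 0, against 8 and 1, a share 5.80-fold higher in the control and 2.87-fold without control replicate 1. The 67 histone genes had 19 and 20 positions on day 0, against 2 and 1, a share 5.15-fold higher in the control. In the bodies alone they had 13 and 17 on day 0 and 1 and 0 in the control, and the groups overlapped. The 28 autosomal housekeeping genes had 43 and 47 positions on day 0, against 4 and 2, a share 4.46-fold higher in the control. Gapdh, a glycolytic enzyme gene, had 1 and 0 positions on day 0 and 0 and 2 in the control. The 20 naive pluripotency factors had 110 and 114 on day 0, against 8 and 3 in the control, and the 21 genes of the methylation machinery 227 and 233 on day 0, against 7 and 7. The control share was 3.08-fold higher for the naive factors. For the methylation machinery it was 2.39-fold higher, and 1.32-fold without control replicate 2. With 1 kb on each side included, the groups did not overlap for any of these 6 lists, but several control counts are below 5. The groups also did not overlap for the imprinted and zinc finger lists, higher in the control, and for Sfi1, higher on day 0. They overlapped for the remaining lists. Over all genes, the control share was 3.71-fold higher within 1 kb of a start, and 54.7% against 50.4% in protein-coding bodies. Whether any list departs from these general differences was not tested. In the test of gene bodies described below, which called 0.205% of genes higher on day 0, no ribosomal protein, Hox, histone or housekeeping gene passed the filter. Of the naive factors 2 were tested and of the methylation machinery 4, without a call. Of the long cell adhesion genes 32 were tested and 1 was called higher on day 0, Tenm3.

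Other lists were as follows. In the bodies of 1100 olfactory receptor genes, small genes of the sense of smell, day 0 had 221 and 219 positions and the control 2 and 1, a share 2.19-fold higher on day 0. Within 1 kb the counts became 315 and 322 on day 0 and 3 and 4 in the control, and the groups overlapped. The bodies of 34 long cell adhesion genes held 3595 and 3800 positions on day 0 and 90 and 29 in the control, or on average 0.944% of positions on day 0 and 0.921% in the control. The 415 zinc finger genes held 0.701% on day 0 and 0.718% in the control, and the 25 markers of other lineages 0.0847% on day 0 and 0.0880% in the control. With 1 kb on each side included, the 57 clustered protocadherins, cell surface genes of neurons, had 79 and 61 positions on day 0 and 1 and 2 in the control. The 21 autosomal germline genes with methylated promoters had 186 and 170 on day 0 and 4 and 1 in the control, and the 352 vomeronasal receptor genes, which serve pheromone sensing, 147 and 158 on day 0 and 4 and 0 in the control. The groups overlapped in the shares of these 3 lists. Of the list of ribosomal DNA and satellite-region models only Sfi1 is in the annotation used, with 101 and 97 positions in its body on day 0 and 2 and 0 in the control. The 49 autosomal imprinted genes held 763 and 802 positions on day 0 and 21 and 8 in the control, a share of 0.200% on day 0 and 0.233% in the control. Among them Igf2r, which encodes a receptor that clears insulin-like growth factor 2, had 48 and 45 positions on day 0 and 1 and 0 in the control, and Peg3, a zinc finger gene, 20 and 15 on day 0 and none in the control.

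Single genes of interest were mostly too thinly covered in the control to compare. Dnmt1 itself (chr9:20907206-20959888) had 23 and 25 positions on day 0 and none in the control. Since 0 positions allow up to 3 over the control libraries, a share above that of day 0, no fold is given. Dnmt3a, a de novo methyltransferase, had 41 and 35 on day 0 and 2 and 0 in the control, and Dnmt3b, its partner, 10 and 14 on day 0 and none in the control. Tet1, which oxidises methylated cytosine, had 19 and 19 on day 0 and 0 and 1 in the control. Uhrf1, which brings DNMT1 to replicated DNA, had 4 and 3 on day 0 and none in the control. Pou5f1, the gene of the pluripotency factor OCT4, had no position in any of the 4 libraries. Nanog, another such factor, had 0 and 0 on day 0 and 1 and 0 in the control.

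Windows of 100 kb gave the distribution on a larger scale. Of 23948 windows with a position in any library, day 0 as deposited left 372 and 335 empty, and the control 17396 and 20951. With day 0 thinned at random to the 9027 positions of control replicate 1, the means of 20 draws were 29.3% and 29.4% of windows occupied, against 27.4% in that control library. Thinned to the 3436 positions of replicate 2, day 0 occupied 13% and 13%, against 12.5%. The densest 1% of windows held 8.68% and 8.66% of the thinned day 0 positions, against 10.9% in control replicate 1, and 14.7% and 14.7%, against 16% in replicate 2. In every draw day 0 occupied more windows than the control library of the same number of positions: the lowest were 29.1% and 29.2%, against 27.4%, and 12.8% and 12.8%, against 12.5%. The exact test over libraries mixes both depths, so its p is not read here. Where depth was matched by reads instead, day 0 occupied 39.1% of windows on average, against 19.9% in the control.

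The ordering of windows was weakly shared. Between thinned day 0 and control libraries the rank correlation over 23948 windows lay between 0.0792 and 0.0865 on average, against 0.0881 between the day 0 replicates thinned to the same numbers and 0.132 between the control replicates. At 1 Mb it lay between 0.383 and 0.418 for day 0 against control and was 0.421 between thinned day 0 replicates and 0.484 between the control replicates. The control pair was thus higher than day 0 against control on both scales. The points share the density of CpGs, the mappability of each window and the low numbers of positions, so these are descriptions. Without thinning, the day 0 replicates had a rank correlation of 0.882 at 100 kb and 0.980 at 1 Mb.

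Windows without genes held more of the day 0 label. Windows overlapping no protein-coding gene had 24.6% and 24.8% of positions on day 0, against 18.4% and 20.1% in the control. Those overlapping 2 to 4 genes had 31.8% and 31.4% on day 0, against 37.9% and 37.0% in the control. Those with 5 to 9 genes had 5.30% and 5.03% on day 0, against 10.003% and 8.29%, and those with 10 or more had 0.325% and 0.288% on day 0, against 0.742% and 0.728%. The groups do not overlap in any of these classes. By chromosome, chromosome 11 had 5.80% of day 0 positions and 7.07% of control positions, and chromosome 1 had 7.30% of day 0 positions and 5.66% of control positions.

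**Figure D4:**
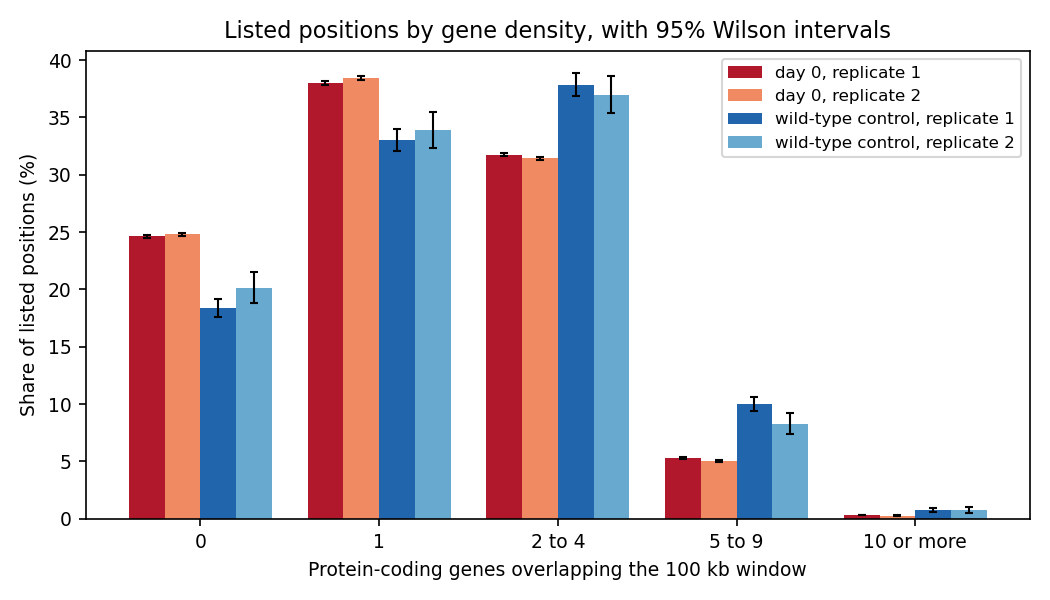
Share of listed positions (%, linear axis) in 100 kb windows grouped by the number of protein-coding genes that overlap them, by library, day 0 left of control, with 95% Wilson intervals. Day 0 is higher in windows with no gene (24.6% and 24.8%, against 18.4% and 20.1%) and lower in windows with 5 to 9 genes (5.30% and 5.03%, against 10.003% and 8.29%).

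At 1 Mb single windows could be tested. With edgeR's quasi-likelihood test on listed positions and Benjamini-Hochberg adjustment at 0.05, 10 of 2393 windows were called, 0.418% of those tested, with 9 lower on day 0 (0.376%) and 1 higher (0.0418%). These p-values borrow the spread from all windows, with a common coefficient of variation between replicates of 0.0258. The replicate spread of a single window therefore counts for little in them. On simulated counts, changes were planted in the better-covered windows. The test recovered 94% of 4-fold changes lower on day 0 and 36% of those higher, and called 3 unchanged windows. The split of calls by direction is therefore not read as a result. The largest change was at chr17:39000001-40000000, with 215 and 149 positions on day 0 and 75 and 26 in the control, a log2 change of -4.07 (SE 0.23, adjusted p = 1.62e-62). This was 46.7 per 100000 listed positions on day 0 and 794 in the control. Next was chr8:70000001-71000000, with 216 and 170 positions on day 0 and 23 and 5 in the control (log2 -2.13, SE 0.37, adjusted p = 1.33e-05). The window at chr7:45000001-46000000, which overlaps 67 protein-coding genes, had 266 and 221 positions on day 0 and 19 and 10 in the control (log2 -1.85, SE 0.36, adjusted p = 0.000178). Apart from the first, which overlaps 6 protein-coding genes, the windows called lower overlapped 11 to 67, and 7 of the 9 overlapped more than 21, the 90th percentile of the windows tested, whose median was 6. The window called higher, chr7:121000001-122000000, had 241 and 261 positions on day 0 and none in the control, at least 2.66-fold higher against a floor of 3 positions over the control libraries. It is among 179 windows with no control position that passed the filter through day 0 alone, so its call supports nothing further.

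Most of these calls did not hold with 1 library left out, a fit with a lone library in one group that is assumed to vary like the other. Without replicate 1 of the control, or without replicate 1 of day 0, none of the 10 was called. Without replicate 2 of day 0 there was 1 call and without replicate 2 of the control 2. The log2 change of the window at chr17:39000001-40000000 stayed between -4.19 and -3.08 when a library was left out. The window at chr7:45000001-46000000 stayed at -1.92 and -1.79 without control replicate 1 and 2, and at -1.33 and -1.04 without day 0 replicate 1 and 2. With the replicate number as a block there were 4, and with reads in place of positions none. The window at chr8:120000001-121000000 was called with 32 and 3 positions in the control, whose replicates straddle the day 0 share, and its log2 change turned to 0.44 without replicate 1. Over all tested windows the direction varied with gene number: scaled by library totals, the median log2 change was 0.48 in 1002 windows overlapping 0 to 4 protein-coding genes, -0.03 in 500 windows with 10 to 19 and -0.63 in 117 windows with 30 or more, beside 0.20 over all windows tested.

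The first of these windows contains a model of a ribosomal RNA gene. Its 100 kb part at chr17:39800001-39900000 holds Rn18s-rs5, a pseudogene model of 18S ribosomal RNA, and the lncRNA model AY036118, and had the most control positions of all windows. It held 158 and 77 positions on day 0 (0.0412% and 0.0193%), against 73 and 25 in the control (0.809% and 0.728%). Ribosomal RNA genes are present in many copies, of which the reference holds a fragment here, so reads of other copies can be placed in this window. Rn18s-rs5 alone (chr17:39846354-39848202) had 36 and 12 positions on day 0 and 26 and 0 in the control. AY036118 had 25 and 16 on day 0 and 6 and 3 in the control. In each of these libraries most positions of the 100 kb window lay outside both models. Whether those positions lie in ribosomal RNA sequence was not tested. In the other wild-type libraries the window had 26, 2 and 33 positions.

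The 100 kb windows and gene bodies gave no call that held across scalings. No 100 kb window of 8214 tested passed (0%), with 1715 at an unadjusted p under 0.05 and none called by DESeq2. At this depth a difference in a single 100 kb window or gene body was hardly detectable, so these counts do not show that the windows are alike. Of 2926 gene bodies tested, 6 were called, all higher on day 0 (0.205%). TMM, edgeR's scaling by trimmed means, gave factors of 0.541 to 2.98 for 100 kb windows and 0.629 to 2.31 for genes, where most control counts are 0 or 1, and it moved the median log2 change over all features tested to 1.38 and 1.15. Scaled by library totals the medians were -0.19 and -0.02, 9 windows were called, all lower on day 0, and 3 gene bodies, all lower. At 1 Mb the medians were 0.25 with TMM and 0.20 with totals. Of the features tested, 2843 windows and 834 genes had no control position and passed the filter through day 0 alone.

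The 6 gene bodies called higher with TMM run from 566 to 1297 kb in length. Tenm3, a teneurin of the neuronal surface, had 362 and 382 positions on day 0 and 3 and 2 in the control, a log2 change of 2.41 (SE 0.55, adjusted p = 0.0307) that is 1.24 with library totals. Wwox, an oxidoreductase gene at a common fragile site, had 449 and 509 on day 0 and 8 and 3 in the control, with log2 changes of 1.64 (adjusted p = 0.0450) and 0.47. Sox5, a transcription factor gene, had 321 and 337 on day 0 and 3 and 2 in the control, and Enox1 209 and 208 on day 0 and 1 and 0 in the control. Ctnnd2, a catenin gene, had 155 and 168 positions on day 0 and none in the control, at least 1.71-fold higher against a floor of 3 positions over the control libraries. It passed the filter through day 0 alone, so its call supports nothing further. None of the 6 passed with library totals, with the replicate block or without the filter on low counts. All 6 were called by DESeq2, with all 16 libraries in the fit and with positions of at least 2 reads. However, DESeq2 called 2588 of the 6074 gene bodies it tested, 2587 of them higher on day 0. The fit of all 16 libraries called 787 of 18199, 786 of them higher, and positions of at least 2 reads gave 18 of 2250. Keeping their calls there therefore says little about the 6 genes. The 3 called lower with totals were Gm36876, AY036118 and Gse1, named after their values were seen, and all 3 are among the 10 genes with most control positions. Gm36876, an uncharacterised model on chromosome 11, had 35 and 30 positions on day 0 and 8 and 4 in the control. Gse1 had 126 and 138 on day 0 and 16 and 2 in the control. Cdh13, a long cadherin gene, had 410 and 416 on day 0 and 9 and 5 in the control, which is 105 per 100000 positions on day 0 and 112 in the control.

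Reads per position depended on how depth was matched. As deposited, day 0 had 10.8 and 12 reads per position, against 2.50 and 2.35 in the control. Thinned to the reads of the same-numbered control library, day 0 had 1.05 and 1.02 on average, below the control. Thinned to the control's positions, which keeps all reads at each position, day 0 averaged 11.4 and the control 2.42. Drawing few reads from many positions by itself brings reads per position close to 1. Positions with 1 read were 12.1% and 9.73% of the total on day 0, against 58.9% and 42.5% in the control. After thinning, 95% and 98.2% of day 0 positions had 1 read. The 22608 reads that gave 9027 positions in control replicate 1 gave 21468 and 21515 positions in thinned day 0 libraries. Reads at 1 position can be copies of 1 fragment, and no value here separates copies from repeated labelling.

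**Figure D5:**
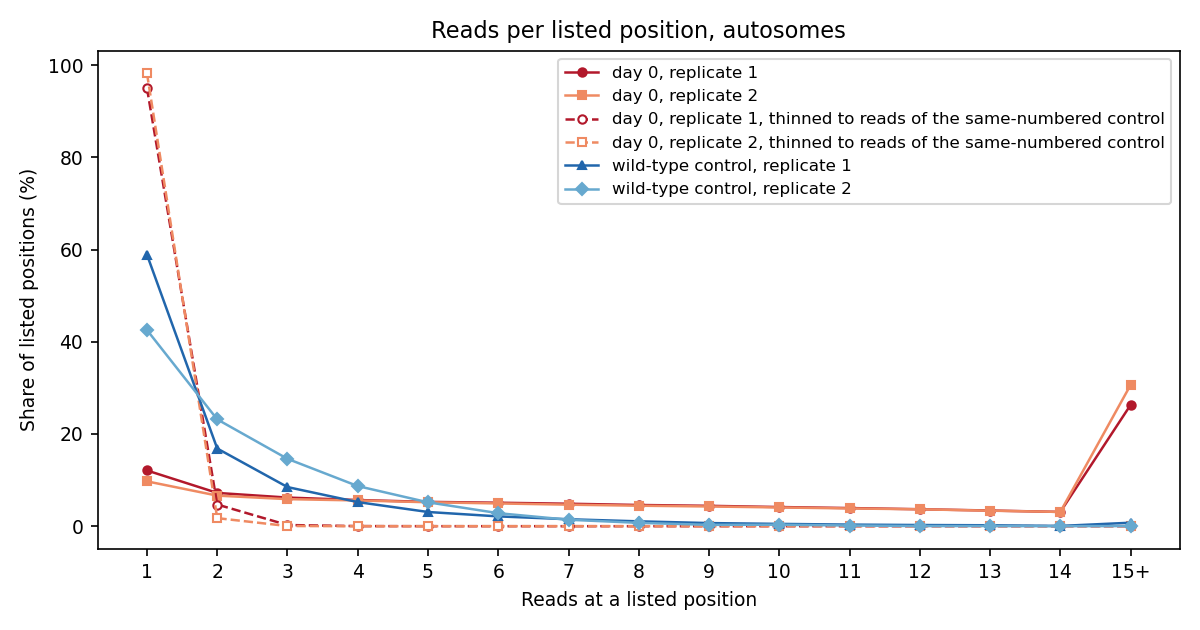
Share of listed autosomal positions (%, linear axis) by the number of reads at the position (15 or more together), for day 0 as deposited (solid) and thinned to the reads of the same-numbered control (dashed, open), and for the control. Thinned day 0 has 95% and 98.2% of positions at 1 read, and the control 58.9% and 42.5%.

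The positions with most reads were different in kind. In both day 0 replicates the first was chr2:98662794, with 720 and 786 reads, against 0 and 1 in the control. It lies in the window chr2:98600001-98700000, which took the most reads of any on day 0, 6525 and 7880 reads on 63 and 68 positions. This was 0.158% and 0.164% of all reads, against 3 and 4 reads in the control, 0.0133% and 0.0496%. By positions the order turned round, with 0.0164% and 0.0170% on day 0 and 0.0222% and 0.116% in the control, which rests on 2 and 4 positions. The position chr5:5712282, in the lncRNA model Gm40262, was the next in day 0 replicate 1 with 647 reads and was not listed in replicate 2. So most of the leading positions, but not all, were high in both day 0 libraries. In control replicate 1 the first positions were chr6:51617404 with 471 reads, chr5:108433754 in Atp5k, a subunit gene of the mitochondrial ATP synthase, with 425, and chr6:91039289 in Nup210, a nuclear pore gene, with 350. None of these was listed in the other 3 libraries. Positions with over 50 reads numbered 13 in that library and held 11.7% of its reads, and control replicate 2 had none, with a highest count of 15. Without positions of over 50 reads, control replicate 1 had 2.21 reads per position.

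Among the 8 windows with most day 0 positions were those at Ttn, the gene of the muscle protein titin (chr2:76700001-76800000), with 129 and 137 positions on day 0 and 1 and 0 in the control, and at Sfi1, a centrosome gene (chr11:3100001-3200000), with 120 and 125 on day 0 and 1 and 0 in the control. The window chr9:3000001-3100000, at the start of chromosome 9 and with no gene of the 2 types used, had 84 and 81 on day 0 and none in the control. These 3 windows were near equal in the day 0 replicates. The window with Rn18s-rs5 described above, also among the 8 densest on day 0, was not, with 158 and 77. They were chosen by these values, so no test is given.

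Few positions recurred. The day 0 replicates shared 19920 positions, 5.20% of replicate 1 and 4.98% of replicate 2. The control replicates shared 15, 0.166% of replicate 1 and 0.437% of replicate 2 (Wilson 95% interval 0.265 to 0.719%). Day 0 thinned to the control's numbers of positions shared 4.6 on average (1 to 9 in 20 draws), 0.134% of replicate 2. Thinned to the control's reads it shared 31.45 on average, 0.397% of its own positions. So at equal positions the control shared more than day 0 in any draw, 15 against at most 9. The Wilson intervals still overlapped, with 0.0622 to 0.340% on day 0. At equal reads the control share was within counting error of day 0. The day 0 libraries then held more positions, so those shares are not on a like basis. Among positions of at least 2 reads, the control shared 2 of 1974, or 0.101%, against 0.0557% on day 0 at equal positions. Of the control positions, 5.89% and 6.14% were listed in either day 0 library. In the heterozygous knock-in, day 2, day 4 and day 8 libraries pooled, 78.2% and 78.3% of day 0 positions were listed, against 65.8% and 64.2% of control positions.

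Of the 15 positions in both control libraries, 9 were listed on day 0. Among those with most control reads was chr7:28775627, inside Sirt2, a deacetylase gene, and the lncRNA model Gm19897, with 27 and 24 reads on day 0 and 4 and 11 in the control. The position chr9:104504208, in no gene, had 60 and 47 on day 0 and 2 and 1 in the control. By contrast chr14:25099819 and chr9:21901623 had no day 0 read and 5 and 1, and 1 and 5, in the control. One of the 15, chr17:39843621, lies in the window that contains Rn18s-rs5 and AY036118, outside both models. Of the 19920 positions shared on day 0, 1.97% lay within 1 kb of a gene start and 1 lay in a promoter window of 20 or more CpGs.

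Dense neighbourhoods gave a weaker and less stable contrast. Counting as dense a position with 10 or more positions within 100 bases in the heterozygous knock-in, day 2, day 4 and day 8 libraries, 0.749% and 0.741% of day 0 positions qualified, against 1.4955% and 1.28% of control positions. The map is itself made of labelled CpGs. The difference was -0.643 percentage points, and it turned to 0.213 without the 1% of windows densest in the control and to 1.28 with a limit of 5 positions. Those windows were chosen by control counts alone. Leaving them out took the control mean from 1.39% to 0.479% and the day 0 mean from 0.745% to 0.692%, so the turn to 0.213 is not read as a result.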

How the data were processed

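The authors deposited, for each library, raw read counts per listed CpG position, with no normalization, per the file headers and the values. Per the submitters' processing notes, cutadapt 4.4, BWA 0.7.17-r1188 and SAMtools 1.12 were used with mm10. Positions off the autosomes were left out. The count of positions per gene class, promoter window and genome window came from RefSeq coordinates on GRCm38.p6 (20665 protein-coding and 12408 lncRNA genes). Day 0 was thinned without replacement, in 20 seeded draws, to the control's reads or positions. Group differences used two-sided exact permutation tests, and intervals are Wilson intervals unless said otherwise. Windows and gene bodies were tested with edgeR 4.0.16 (R 4.3.3) on listed positions with its low-count filter, TMM and Benjamini-Hochberg adjusted p at 0.05, tested on simulated data, where it recovered part of the planted changes at 1 Mb and none in 100 kb windows or gene bodies. DESeq2 1.42.0, NumPy 2.4.6, pandas 2.3.3, SciPy 1.17.1 and matplotlib 3.10.9 (Python 3.11.15) served the alternatives, tables and figures. Named genes were the called gene bodies, the 10 genes and 8 windows with most control positions, up to 2 members of each list with most control positions, 12 fixed genes, and up to 8 positions listed in both control libraries. Members, lists and tests were chosen with earlier results of these data known. The split of promoters at 15 CpGs and its alternatives were added after the data were seen. No marker genes check the cell type, since labelled DNA gives no expression. One called gene body and one position listed in both control libraries are counted but not reported here.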

Additional observations from a re-analysis of the deposited data

Results flagged for a closer look

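Chromosome Y, outside the autosomal comparison, held 39 and 50 listed positions in the day 0 libraries, with 132 and 208 reads, against 0 and 0 in the control. It was singled out as signal in data that the comparisons do not use. These positions were 0.01% and 0.0123% of those in each day 0 library, while a count of 0 in the control allows up to 0.0328% and 0.0857%, so a difference was not detectable at the control's depth.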

How the results depend on the processing

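The differences in gene classes, depth, windows and promoters kept their direction when each library was left out. The ranges were 43.4 to 114-fold for positions, 197 to 553-fold for reads, -5.23 to -3.31 percentage points for protein-coding bodies, -8.72 to -6.75 for gene ends, 2.85 to 4.95 outside genes and -58.8 to -39.4 for the share at dense promoters. Dense neighbourhoods turned to 0.213 and 1.28, as given in the report. Reads per position turned to 8.96 with day 0 thinned by positions, which keeps all reads at a position. For 100 kb windows, against 0 called, reads gave 17 calls, library totals 9, no filter 1, all 16 libraries 1, positions with at least 2 reads 1, and leaving out a control replicate 1 and 1. For 1 Mb windows, against 10, reads gave 0, at least 2 reads 1, DESeq2 63, and leaving out a library 0 to 2. The window on chromosome 8 from 120000001 ran from -1.92 to 0.44 in log2 change when a library was left out. For gene bodies, against 6, reads gave 1239, totals 3, no filter 0, all 16 libraries 787, at least 2 reads 18, DESeq2 2588, and leaving out a control replicate 11 to 21. The cause of these changes was not tested. With the replicate number as a block, calls numbered 0 for 100 kb windows, 4 for 1 Mb windows and 0 for gene bodies. Same-numbered libraries deviated together little (correlations of -0.01, 0.08 and 0.14 over 83, 1057 and 126 features). Most of these features hold few control positions, so the correlations cannot tell whether same-numbered libraries were handled together. Fits left with under 50 features were not run: 100 kb windows and gene bodies without a day 0 replicate, and all 3 with the other wild-type libraries added or day 0 thinned. The control's depth limits single windows and genes, where most hold 0 or 1 positions.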
